A study of Homo sapiens with 6 samples.

Results

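The BCL2 family decides whether a cell permeabilises its mitochondria and dies by apoptosis, and 10 of its genes were followed here through depletion of MEX3A in 2 human ovarian tumour lines. They were chosen by gene symbol as BCL2, BCL2L1, BCL2L2, MCL1, BAK1, BID, BAD, BIK, BMF and BCL2L11, which are 10 of 39282 genes in the deposited tables. All 10 passed the filter on low counts that left 16855 genes for testing. The series asks in its title about MEX3A (which encodes an RNA-binding protein that also carries a RING finger), the degradation of p53, and ferroptosis in ovarian cancer.

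The family has survival proteins, pore formers and BH3-only proteins. Survival proteins (BCL2, BCL-XL from BCL2L1, BCL-W from BCL2L2, and MCL1) hold the pore formers BAK and BAX in check through a groove on their surface. BH3-only proteins (BID, BAD, BIK, BMF and BIM from BCL2L11) fill that groove or engage the pore formers directly, which then open the outer mitochondrial membrane and release cytochrome c. Several family genes, among them BAX, BBC3 and PMAIP1, are known transcriptional targets of p53.

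TOV21G is a line from an ovarian clear cell carcinoma, and PA-1 is one from an ovarian teratocarcinoma. Each line gave 3 stranded poly(A) RNA-seq libraries, which were 1 with lentiviral sh-MEX3A#1 (hairpin 1), 1 with sh-MEX3A#2 (hairpin 2) and 1 with the scramble hairpin sh-Ctrl (control). The cells behind all 6 libraries therefore carried a lentiviral hairpin, and the 2 lines were kept in different media. The series' design text speaks of each depleted culture as a clone, and the hairpins leave part of the MEX3A mRNA in place.

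Libraries held 14654619 to 19495159 counts. MEX3A itself was at 40.1 and 33.1 CPM with hairpins 1 and 2, against 78.3 CPM in the control of TOV21G, and at 41.2 and 54.9 CPM against 137 CPM in PA-1. CPM is the count scaled to the TMM-adjusted library total, in edgeR's unit. The labels give ovarian surface epithelium as the tissue of all libraries. PAX8, a transcription factor of Müllerian tumours, was at 243 to 273 CPM in TOV21G and at 0 to 0.189 CPM in PA-1. POU5F1 and LIN28A, genes of pluripotent cells, were at 4.70 to 9.23 and 22.3 to 78.3 CPM in TOV21G and at 468 to 1258 and 1699 to 2800 CPM in PA-1. PAX8, POU5F1 and LIN28A went with the labelled tumour types. Of the other ovarian markers looked at, WT1 was lower in TOV21G, at 0.739 to 2.14 CPM against 8.19 to 13.6 CPM in PA-1. MUC16 was at or under 0.567 CPM in every library. EPCAM, an epithelial surface protein, was at 6.18 to 13.6 CPM in TOV21G and at 0.0607 to 0.102 CPM in PA-1. The keratin gene KRT8 was at 60.0 to 110 CPM in TOV21G and 148 to 216 CPM in PA-1. KRT18 overlapped between the lines, at 81.3 to 139 CPM in TOV21G and 118 to 183 CPM in PA-1. CDH1 was at most 2.99 CPM in TOV21G and 3.88 CPM in PA-1, and KRT19 at most 2.75 CPM in either line. Of these 5 epithelial markers, only EPCAM had every TOV21G library above every PA-1 library. Of 4 markers of blood, endothelium and liver, PTPRC, HBB and ALB stayed at or under 0.134 CPM in every library, and PECAM1 was at 51.8 to 82.1 CPM in PA-1. The hairpins of TOV21G differed more from each other than those of PA-1 did, with a median absolute difference of 0.47 on the log2 CPM scale against 0.21 over all genes tested. Among the 10 family members the same medians were 0.53 in TOV21G and 0.29 in PA-1.

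All 10 proteins share the BH3 region, a short helix that in BH3-only proteins and pore formers enters the groove of a survival protein. The coding stretch of that region is shown for each member because it is the part on which the family's interactions turn. The 24 bases in capitals are the 8 codons of the BH3 core, found as a leucine or methionine codon, 3 codons of any kind, a glycine, alanine or serine codon, an aspartate codon, a codon of any kind and a hydrophobic codon. This pattern occurred 1 time in the coding sequence of each member in GENCODE v29 (GRCh38), and the stretches below run 5′ to 3′ on the coding strand.
BCL2: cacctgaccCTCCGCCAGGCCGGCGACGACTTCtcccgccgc, chr18:63318346-63318387, minus strand, exon 2 of 3.
BCL2L1: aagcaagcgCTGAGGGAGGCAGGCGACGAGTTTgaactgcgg, chr20:31721919-31721960, minus strand, exon 2 of 3.
BCL2L2: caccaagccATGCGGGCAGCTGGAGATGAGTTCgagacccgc, chr14:23307894-23307935, plus strand, exon 3 of 4.
MCL1: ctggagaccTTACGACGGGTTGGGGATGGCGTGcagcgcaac, chr1:150578862-150578903, minus strand, exon 1 of 3.
BAK1: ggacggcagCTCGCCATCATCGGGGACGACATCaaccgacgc, chr6:33575384-33575425, minus strand, exon 4 of 6.
BID: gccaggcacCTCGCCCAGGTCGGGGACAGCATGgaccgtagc, chr22:17739412-17739453, minus strand, exon 4 of 6.
BAD: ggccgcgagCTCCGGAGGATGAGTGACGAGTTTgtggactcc, chr11:64271619-64271660, minus strand, exon 3 of 4.
BIK: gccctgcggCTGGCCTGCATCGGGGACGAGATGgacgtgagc, chr22:43127707-43127748, plus strand, exon 3 of 5.
BMF: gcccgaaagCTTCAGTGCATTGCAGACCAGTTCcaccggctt, chr15:40104192-40104233, minus strand, exon 4 of 5.
BCL2L11: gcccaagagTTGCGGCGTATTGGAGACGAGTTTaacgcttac, chr2:111150094-111150135, plus strand, exon 3 of 4.
Between pairs of members, 29.2% to 79.2% of the 24 core bases were identical. BAK1 and BIK were the closest pair at 79.2%, and BCL2 and BCL2L1 shared 70.8%, as did BAK1 with BID and BAD with BCL2L11. The lowest identity, 29.2%, was between BCL2L2 and BID. Codon choice differs between members, so these values describe the DNA letters and not the proteins.

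In length-scaled abundance (TPM), MCL1, BCL2L1 and BAK1 were the 3 highest members, in that order, in all 6 libraries. In TOV21G, MCL1 was at 272, 322 and 206 TPM and BCL2L1 at 217, 183 and 172 TPM with hairpin 1, hairpin 2 and the control. These 2 ranges touched across libraries, although MCL1 led within each one. BAK1 followed at 72.3, 74.8 and 51.1 TPM. Below it, neighbours in the order overlapped over the 3 libraries, with BAD at 11.5 to 39.5 TPM, BID at 25.9 to 30.6, BCL2L11 at 16.3 to 30.5, BCL2L2 at 15.8 to 26.5, BMF at 6.19 to 17.2, BIK at 4.92 to 13.7 and BCL2 at 5.06 to 13.2 TPM. Members further apart did not all overlap, since BID lay above BMF, BIK and BCL2 in every library, and BCL2L11 and BCL2L2 above BIK and BCL2.

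In PA-1 the step between MCL1 and BCL2L1 was wider. MCL1 was at 306, 397 and 256 TPM with hairpin 1, hairpin 2 and the control, and BCL2L1 at 56.7, 73.0 and 50.9 TPM. BAK1, at 32.5 to 36.9 TPM, overlapped with BAD at 20.2 to 35.6 TPM, and BAD with BCL2L2 at 21.3 to 23.4 TPM. BID and BCL2L11 were next at 16.0 to 19.4 and 15.05 to 16.9 TPM, then BCL2 and BMF at 5.97 to 9.74 and 5.90 to 9.27 TPM. BIK, at 1.04 to 2.14 TPM, was last in all 3 PA-1 libraries.

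The survival genes made up most of the summed TPM of the 10 members, which do not include BAX. BAX was at 287, 202 and 147 TPM with hairpin 1, hairpin 2 and the control of TOV21G, and at 298, 346 and 236 TPM in PA-1. It would take a large part of a sum that held it. The summed TPM of the survival genes was 521, 528 and 409 with hairpin 1, hairpin 2 and the control of TOV21G, and 394.65, 498 and 338 in PA-1. MCL1 supplied 52.2%, 61.0% and 50.4% of that sum in TOV21G, and 77.6%, 79.7% and 75.8% in PA-1. BCL2L1 supplied 41.7%, 34.7% and 42.1% in TOV21G, and 14.4%, 14.7% and 15.0% in PA-1. The 2 lines thus kept different survival mixtures, with every TOV21G library above every PA-1 library in the share of BCL2L1. The 5 BH3-only members summed to 125, 73.5 and 84.6 TPM in TOV21G and to 65.8, 64.5 and 79.6 TPM in PA-1. Set against the survival sum, that was 23.9%, 13.9% and 20.7% in TOV21G and 16.7%, 12.9% and 23.5% in PA-1, so only hairpin 2 was lower than the control in both lines by this measure, and hairpin 1 lay on either side. The sums leave out the BH3-only genes BBC3, PMAIP1 and HRK. BBC3 was higher with both hairpins in both lines, at 29.44 and 33.29 against 11.82 TPM in TOV21G. PMAIP1 was at 41.85 and 63.68 against 23.8 TPM in PA-1, and at 8.65 and 13.49 against 13.11 TPM in TOV21G. HRK, at most 5.69 TPM, was lower with both hairpins in TOV21G and higher in PA-1. The direction of the BH3-only sum therefore depends on the genes in it.

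**Figure D1:**
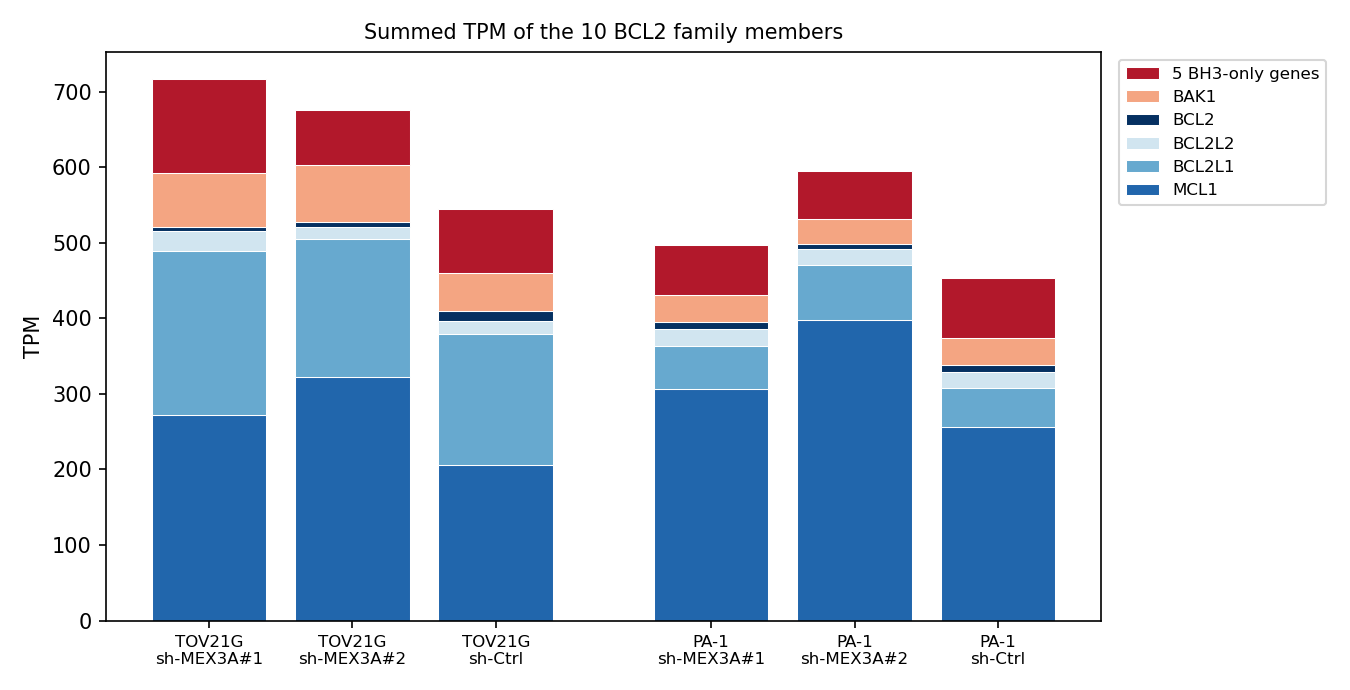
Stacked bars show the TPM (RSEM's length-scaled abundance) of each of the 4 survival genes, BAK1 and the 5 BH3-only members together. Each bar is 1 library, with no error, and BAX, BBC3, PMAIP1 and HRK are not included. MCL1 fills most of each PA-1 bar, BCL2L1 is a broad segment in TOV21G, and the thin BCL2 segment is thinner with both hairpins than in the control of each line.

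The first comparison, the one the series' design text names, set the hairpins against the control within each line. BCL2 was lower with both hairpins in both lines, MCL1 and BCL2L1 were higher with both hairpins in both lines, and the other 7 members differed in direction between hairpins or between lines. None of the 10 passed edgeR's quasi-likelihood test at an adjusted p under 0.05 in TOV21G, in PA-1 or in the mean of both lines. The background was also empty, with 0% of the 16855 genes called in each of these contrasts. The hairpin target MEX3A did not pass either, at log2 fold changes of -1.10 (SE 0.29, edgeR adjusted p = 0.417) in TOV21G and -1.51 (SE 0.28) in PA-1. For the mean of both lines its log2 fold change was -1.30 (SE 0.20, edgeR adjusted p = 0.547). A member that was not called can therefore still have changed. At an unadjusted p under 0.05 there were 1612 genes in TOV21G, 434 in PA-1 and 1383 in the mean, and these held 1, 0 and 1 of the 10 members. The member was BCL2 each time. DESeq2 called 1.89% of 11953 genes in TOV21G and 0.232% of 15547 genes in PA-1. These held 0 of the 9 members it gave an adjusted p in TOV21G and 0 of 10 in PA-1. It called MEX3A in PA-1 and not in TOV21G.

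**Figure D2:**
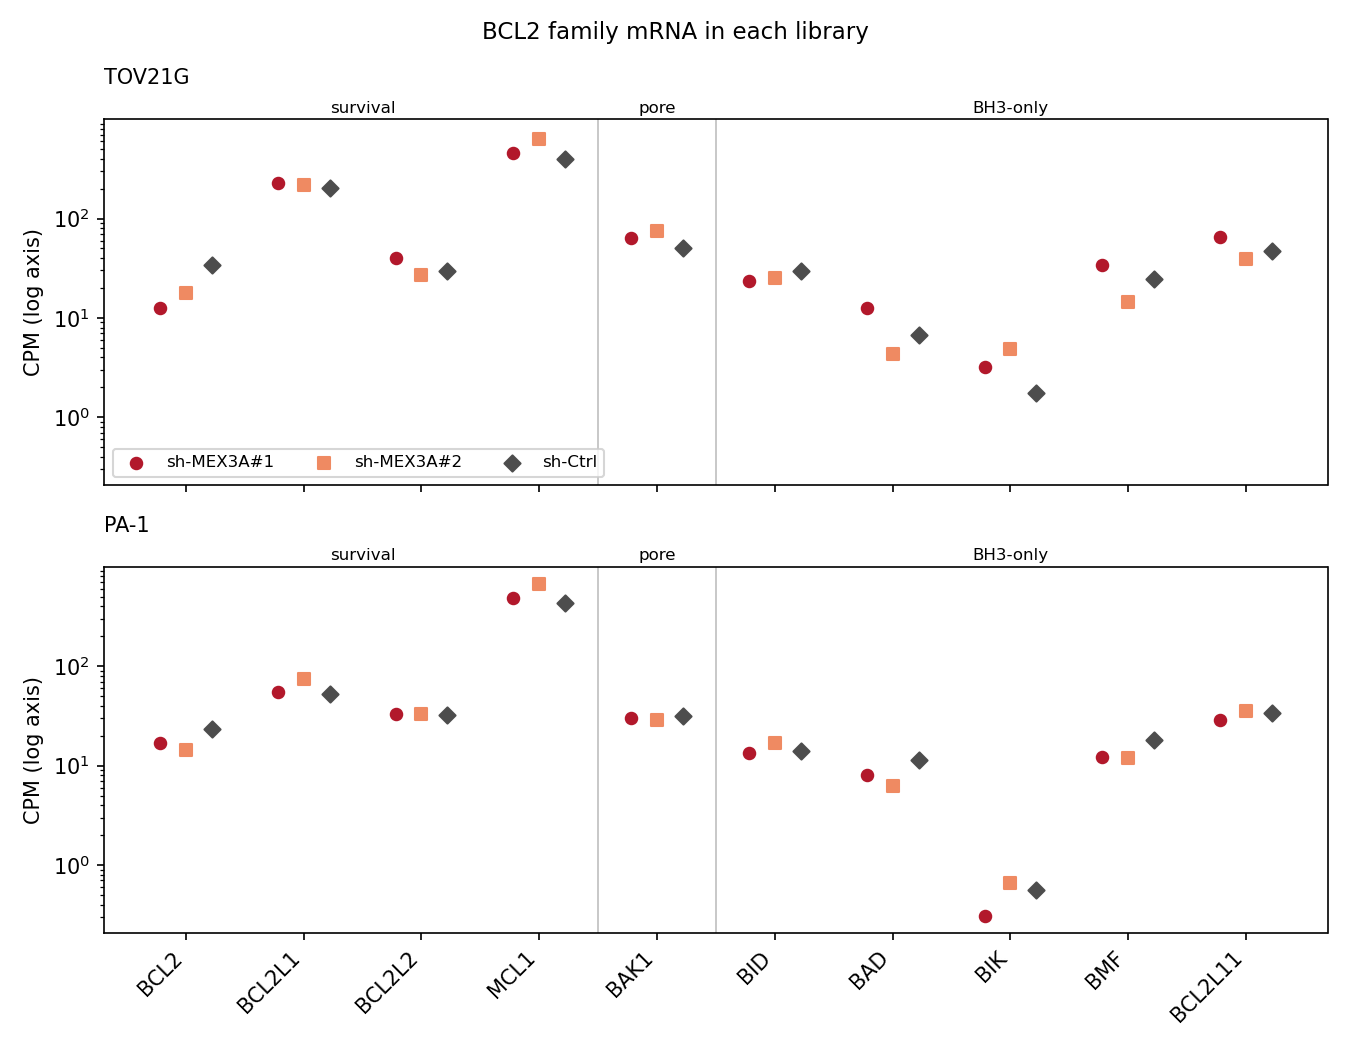
Points give the CPM of each member in each library on a log axis, with TOV21G above and PA-1 below and 1 library per point. BCL2 is lower and MCL1 higher with both hairpins than in the control in both panels, and BAD, BMF and BCL2L11 lie on both sides of the control in TOV21G.

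In bulk RNA, less mRNA in every cell and fewer cells that make it cannot be told apart. Each hairpin has 1 library per line, so the p-values rest on the spread between hairpin libraries, pooled over both lines in 1 fit. In that spread reagent, culture and technical differences cannot be told apart. The biological coefficient of variation was 0.387 in TOV21G alone, 0.164 in PA-1 alone and 0.295 together. The pooled spread is thus wider than that of PA-1 and narrower than that of TOV21G. Each line has a single control, taken to vary as the hairpin libraries of both lines do, since the spread is measured between hairpins.

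BCL2 (chr18:63123346-63320090, minus strand, hg38) encodes the founding survival protein of the family. It was at 12.5 and 17.9 CPM with hairpins 1 and 2 in TOV21G, against 34.1 CPM in the control. In PA-1 it was at 16.9 and 14.2 CPM with hairpins 1 and 2, against 23.3 CPM in the control. Every hairpin library was below its control, and the 4 hairpin values lay below both controls. As a percentage of the control, BCL2 was at 36.7% (95% interval 31.0% to 43.4%) and 52.6% (45.2% to 61.1%) in TOV21G, and at 72.7% (62.0% to 85.1%) and 61.1% (52.2% to 71.6%) in PA-1. These exact intervals cover counting error only, since each side is 1 library. The reads carried no molecular identifiers, so the intervals can be too narrow even for counting error. The log2 fold change was -1.16 (SE 0.32, edgeR adjusted p = 0.428) in TOV21G and -0.58 (SE 0.33, edgeR adjusted p = 1) in PA-1. For the mean of both lines it was -0.87 (SE 0.23, edgeR adjusted p = 0.553). The effect in TOV21G minus that in PA-1 was -0.58 (SE 0.47, edgeR adjusted p = 1.00). BCL2 was thus the member with the lowest unadjusted p, and it did not pass over all genes under edgeR or, at an adjusted p of 0.290 in TOV21G, under DESeq2. Lower with all 4 hairpin libraries were 15.0% of the genes tested.

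The proliferation genes and nuclear RNAs of the same libraries also differed. MKI67 was at 308 and 208 CPM with hairpins 1 and 2 against 637 CPM in the TOV21G control, and at 522 and 453 against 599 CPM in PA-1. TOP2A was at 152 and 138 CPM against 310 CPM in TOV21G, and at 605 and 602 against 759 CPM in PA-1, so 2 of 2 proliferation markers were lower with every hairpin. NEAT1, a nuclear RNA, stood at 1133 and 1068 CPM against 361 CPM in TOV21G, and at 270 and 273 against 119 CPM in PA-1. MALAT1 was at 9429 and 18455 CPM against 4315 CPM in TOV21G, and at 1303 and 1113 against 910 CPM in PA-1. Both nuclear RNAs were thus higher in every hairpin library. The summed level of 6 clear cell carcinoma markers was 2999 and 5097 CPM against 7361 CPM in TOV21G, and 1001 and 997 CPM against 229 CPM in PA-1. Most of that sum was SPP1, at 1625 and 3765 against 6019 CPM in TOV21G and at 894 and 852 against 166 CPM in PA-1, whereas TFPI2 was at 519 and 443 against 41.2 CPM in TOV21G. With both hairpins, 2 of the 6 were higher and 3 lower in TOV21G, and 5 were higher and 0 lower in PA-1. The summed level of 7 teratocarcinoma markers was 53.8 and 84.9 against 31.1 CPM in TOV21G, and 3509 and 4047 against 4158 CPM in PA-1; NANOG, LIN28B and DPPA4 were at 0 in TOV21G. In PA-1, LIN28A was at 1699 and 2015 against 2800 CPM and POU5F1 at 1044 and 1258 against 468 CPM. Under both hairpins 1 of these 7 was higher and 1 lower in TOV21G, and 3 were higher and 3 lower in PA-1. The part that any of these has in the family's values was not tested.

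MCL1 (chr1:150574558-150579610, minus strand) encodes a survival protein with a short half-life that many cells need continuously. In TOV21G it was at 459 and 624 CPM with hairpins 1 and 2, against 395 CPM in the control. In PA-1 it was at 491 and 676 CPM with hairpins 1 and 2, against 434 CPM in the control. Each hairpin library was above its control, and hairpin 2 was the higher of the hairpins in both lines. Hairpin 1 gave 116% (112% to 120%) of the control in TOV21G and 113% (109% to 117%) in PA-1, and hairpin 2 gave 158% (153% to 163%) and 156% (151% to 160%). In log2 terms the fold change was 0.46 (SE 0.33, edgeR adjusted p = 0.692) in TOV21G, 0.43 (SE 0.33, adjusted p = 1) in PA-1 and 0.44 (SE 0.24, adjusted p = 0.694) in the mean. The spread between hairpins, 0.44 and 0.46 on the log2 scale, was about as large as the difference from the control.

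BCL2L1 (chr20:31664452-31723963, minus strand) encodes BCL-XL, a survival protein, and a short splice form with the opposite effect, which the gene-level counts do not separate. It was at 226 and 217 CPM with hairpins 1 and 2, against 202 CPM in the control of TOV21G. In PA-1 it was at 55.2 and 74.9 CPM with hairpins 1 and 2, against 52.1 CPM in the control. All hairpin libraries were above their control, and the counting interval of PA-1 hairpin 1, 96.2% to 116% of the control, held the control's own level. Hairpin 2 of PA-1 stood out at 144% (132% to 157%). In log2 terms the fold change was 0.13 (SE 0.28, edgeR adjusted p = 0.911) in TOV21G and 0.32 (SE 0.29, adjusted p = 1) in PA-1. Higher with all 4 hairpin libraries were MCL1 and BCL2L1, 2 of the 10 members, beside 14.3% of the genes tested.

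BCL2L2 (chr14:23306833-23311751, plus strand) encodes the survival protein BCL-W. It was at 39.6 and 27.1 CPM with hairpins 1 and 2, against 29.6 CPM in the control of TOV21G, and at 33.2 and 33.2 CPM against 32.0 CPM in PA-1. The hairpins fell on both sides of the control in TOV21G. In PA-1 they were at 104% (91.8% to 117%) and 103% (92.0% to 116%), and both counting intervals held the control's level. Its log2 fold change was 0.17 (SE 0.32) in TOV21G and 0.05 (SE 0.32) in PA-1. BCL2L2 shares sequence with the readthrough gene BCL2L2-PABPN1, listed at 4.42 and 11.9 against 6.17 CPM in TOV21G and at 2.79 and 3.41 against 4.47 CPM in PA-1, so the split of reads between them is uncertain.

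BAK1 (chr6:33572552-33580276, minus strand) encodes BAK, which forms the pore in the outer mitochondrial membrane. It was at 63.3 and 74.6 CPM with hairpins 1 and 2, against 50.6 CPM in the control of TOV21G. BAK1 stood at 30.4 and 28.5 CPM with hairpins 1 and 2, against 31.4 CPM in the control of PA-1. Both TOV21G hairpin libraries were above the control, at 125% (114% to 138%) and 148% (134% to 162%). Both PA-1 hairpin libraries were just below it in CPM, at 96.8% (85.3% to 110%) and 90.7% (80.2% to 102%), whereas in TPM hairpin 1 was at 36.9 against 36.0 in the control. The log2 fold change was 0.45 (SE 0.25, edgeR adjusted p = 0.620) in TOV21G and -0.09 (SE 0.25, adjusted p = 1) in PA-1. The effect in TOV21G minus that in PA-1 was 0.54 (SE 0.35, edgeR adjusted p = 1.00). In that contrast edgeR called 0% of 16855 genes, with 642 genes and 0 of the 10 members at an unadjusted p under 0.05, and DESeq2 called 19 genes.

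Because the series concerns p53, the 250 bases before the start of each member were searched on both strands for the half-site consensus of p53, a palindrome of 10 bases. RefSeq promoters (GRCh38.p14) were at hand for 7 of the 10 members, 14 in all, with 5 for BID and 2 each for BAD, BMF and BCL2L1. Of these, 1 held a match, that of BAK1, beside 5.57% of all 35116 promoters of this length. The stretch is chr6:33580277-33580526, minus strand, with the match in capitals.
BAK1: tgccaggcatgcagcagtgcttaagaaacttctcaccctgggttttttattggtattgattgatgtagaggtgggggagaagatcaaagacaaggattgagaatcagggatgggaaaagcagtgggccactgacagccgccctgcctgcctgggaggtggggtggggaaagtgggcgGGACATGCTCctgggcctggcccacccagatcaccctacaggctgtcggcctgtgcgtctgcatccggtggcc
A match of these letters is a description and not a binding site, and no other motif was searched.

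**Figure D3:**
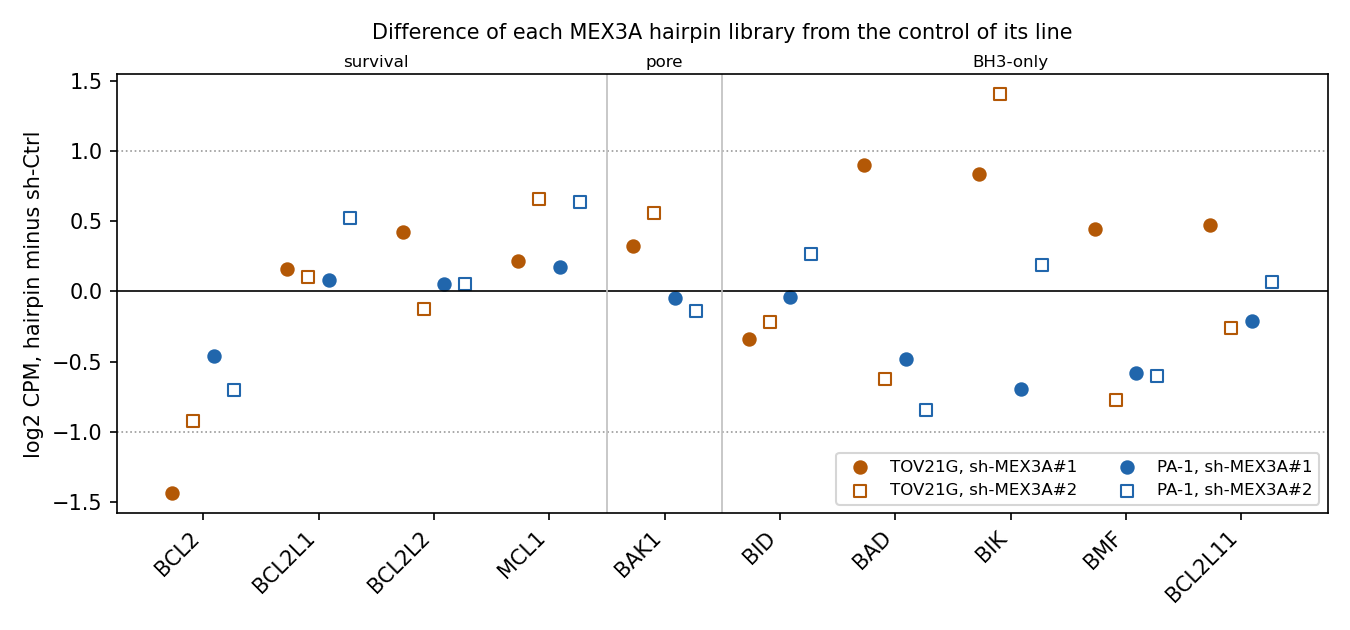
Each point is the difference in log2 CPM of 1 hairpin library from the control of its line, with no error because each is a single library, and the dotted lines mark a 2-fold difference. All 4 BCL2 points lie below 0, all 4 MCL1 and BCL2L1 points above 0, and the TOV21G points of BAD, BMF and BCL2L11 fall on both sides.

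Among BH3-only genes, BAD (chr11:64269828-64284704, minus strand) encodes a sensitiser whose activity is switched off by phosphorylation. It was at 12.6 and 4.30 CPM with hairpins 1 and 2, against 6.69 CPM in the control of TOV21G. In PA-1 it was at 8.07 and 6.26 CPM with hairpins 1 and 2, against 11.3 CPM in the control. The TOV21G hairpins lay far to either side of the control, at 188% (147% to 242%) and 64.3% (46.3% to 88.6%), and differed by 1.52 on the log2 CPM scale. Both PA-1 hairpins were lower, at 71.2% (56.5% to 89.6%) and 55.2% (43.5% to 69.8%). In log2 terms the fold change was 0.34 (SE 0.68) in TOV21G and -0.66 (SE 0.65) in PA-1, with edgeR adjusted p values of 0.901 and 1.

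BMF (chr15:40087890-40108879, minus strand) encodes a BH3-only protein that is held at the cytoskeleton in healthy cells. In TOV21G it was at 33.8 and 14.4 CPM with hairpins 1 and 2, against 24.7 CPM in the control. The PA-1 values were 12.1 and 11.9 CPM with hairpins 1 and 2, against 18.1 CPM in the control. It thus had the same pattern as BAD, with the TOV21G hairpins on both sides at 136% (119% to 156%) and 58.4% (49.1% to 69.2%) and the PA-1 hairpins both lower at 66.6% (55.3% to 80.1%) and 65.6% (55.0% to 78.3%). In log2 terms the fold change was -0.04 (SE 0.52) in TOV21G and -0.60 (SE 0.52) in PA-1, with an edgeR adjusted p of 1 in both.

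BCL2L11 (chr2:111120914-111168445, plus strand) encodes BIM, a BH3-only protein that binds all survival proteins. It was at 65.5 and 39.4 CPM with hairpins 1 and 2, against 47.2 CPM in the control of TOV21G, and at 29.0 and 35.3 CPM against 33.6 CPM in PA-1. The TOV21G hairpins again lay on both sides, at 139% (126% to 153%) and 83.6% (74.9% to 93.4%). In PA-1 they did so narrowly, and hairpin 2 was at 16.8 against 16.9 TPM in the control, so its side of the control turned with the unit. BAD, BMF and BCL2L11 were thus all highest with hairpin 1 and lowest with hairpin 2 in TOV21G. BCL2L2, a survival gene, had that order as well.

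BID (chr22:17734138-17774665, minus strand) encodes the protein that caspase-8 cleaves to link death receptors to mitochondria. It was at 23.5 and 25.5 CPM with hairpins 1 and 2, against 29.7 CPM in the control of TOV21G, and at 13.5 and 16.7 CPM against 13.9 CPM in PA-1. Both TOV21G hairpins were lower, at 79.1% (68.7% to 91.0%) and 85.8% (74.7% to 98.5%), with a log2 fold change of -0.28 (SE 0.28, edgeR adjusted p = 0.769). In PA-1 they were split around the control in CPM, and both were above it in TPM, at 16.6 and 19.4 against 16.0.

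BIK (chr22:43110750-43129712, plus strand) encodes a BH3-only protein of the endoplasmic reticulum. In TOV21G it was at 3.23 and 4.84 CPM with hairpins 1 and 2 (49 and 72 counts), against 1.75 CPM (27 counts) in the control. Both hairpins were above the control, at 184% (113% to 307%) and 276% (175% to 447%), with a log2 fold change of 1.20 (SE 0.68, edgeR adjusted p = 0.619). In PA-1 it was at 0.303 and 0.661 CPM with hairpins 1 and 2 (5 and 13 counts), against 0.567 CPM (9 counts) in the control, and no difference was detectable at this depth.

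By count, 4 of the 10 members were higher and 2 lower with both hairpins in TOV21G, where 31.3% of all genes tested were higher and 31.9% lower. In PA-1, 3 were higher and 4 lower with both hairpins, where 33.8% were higher and 34.0% lower. The remaining 4 members in TOV21G and 3 in PA-1 lay on either side of the control. At least 2-fold different with both hairpins were 0 members in each line, where the background was 7.62% in TOV21G and 4.04% in PA-1. The median log2 fold change of the members was 0.16 in TOV21G and -0.08 in PA-1, beside 0.02 and 0 over all genes tested. The counts of the members were near those of the background.

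The second comparison described the levels of the members in TOV21G against PA-1, over the mean of the control and knockdown means of each line. BCL2L1, BAK1, BID and BIK were higher in TOV21G, 4 of 10 members called by edgeR, and 0 were lower. The background was wide, since edgeR called 40.6% of all genes tested between the lines and 20.0% as higher in TOV21G. DESeq2 called these 4 members as well, and the same 4 were those with an unadjusted edgeR p under 0.05. The lines differ in tumour type, genome and culture medium, and these cannot be told apart.

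BCL2L1 had the smallest adjusted p of the members, at 202 to 226 CPM in TOV21G and 52.1 to 74.9 CPM in PA-1. Its log2 fold change was 1.86 (SE 0.21, edgeR adjusted p = 0.00295), and the 3 libraries of each line did not overlap. BAK1 was at 50.6 to 74.6 CPM in TOV21G and 28.5 to 31.4 CPM in PA-1, with a log2 fold change of 0.96 (SE 0.18, edgeR adjusted p = 0.0129). BID was at 23.5 to 29.7 CPM in TOV21G and 13.5 to 16.7 CPM in PA-1, with a log2 fold change of 0.89 (SE 0.20, edgeR adjusted p = 0.0215). BIK had the largest fold change of the members, at 1.75 to 4.84 CPM in TOV21G and 0.303 to 0.661 CPM in PA-1, and a log2 fold change of 2.32 (SE 0.51, edgeR adjusted p = 0.0208). Without hairpin 1 of PA-1 the adjusted p was 0.0855 for BAK1, 0.145 for BID and 0.0725 for BIK, and without hairpin 2 of PA-1 it was 0.0952 for BAK1 and 0.0972 for BID, so the calls of BAK1 and BID were lost without either PA-1 hairpin and that of BIK without hairpin 1. BCL2L1 passed with each hairpin library left out, at adjusted p values up to 0.0161.

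The other 6 members did not pass between the lines. BCL2L11, at 39.4 to 65.5 CPM in TOV21G and 29.0 to 35.3 CPM in PA-1, had a log2 fold change of 0.60 (SE 0.27, edgeR adjusted p = 0.134). BMF had 0.73 (SE 0.37, adjusted p = 0.177). Without hairpin 2 of TOV21G both were called, at 0.76 (adjusted p = 0.00998) for BCL2L11 and 0.98 (adjusted p = 0.00365) for BMF, and without hairpin 1 of TOV21G BAD was called at -0.74 (adjusted p = 0.0422). MCL1, the most abundant member, differed by -0.12 (SE 0.23, edgeR adjusted p = 0.704), and BCL2 by 0.26 (SE 0.23, adjusted p = 0.416). BCL2L2 and BAD had values of -0.05 (SE 0.22) and -0.26 (SE 0.47).

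**Figure D4:**
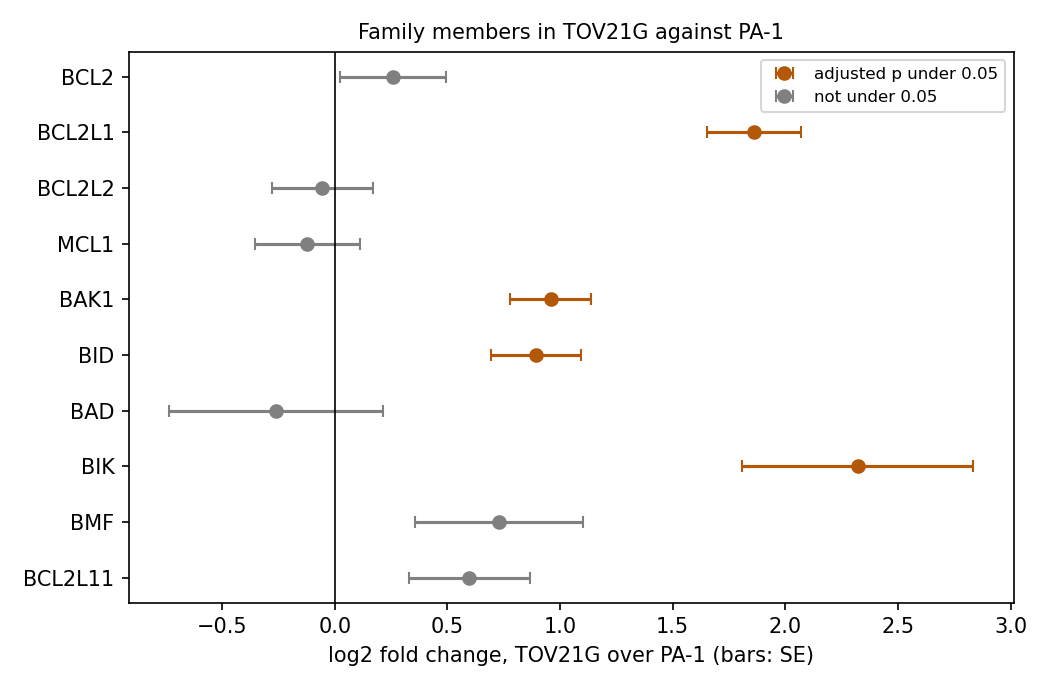
Points are edgeR log2 fold changes of TOV21G over PA-1 for each member with bars of 1 SE, over 3 libraries of each line, and orange marks an adjusted p under 0.05. BCL2L1, BAK1, BID and BIK are the orange points, between 0.89 and 2.32.

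The other genes of the family were set beside these members, and 10 of 11 passed the filter; BCL2A1 had at most 3 counts. With both hairpins 4 were higher and 3 lower in TOV21G, where 31.3% of all genes tested were higher and 31.9% lower. In PA-1, 6 were higher and 0 lower, where 33.8% were higher and 34.0% lower. BCL2L15, at 5 and 3 counts against 1 in PA-1, is among the 6. The median log2 fold change of the 10 genes was 0.60 in TOV21G and 0.30 in PA-1. It was 0.14 and 0.30 without the genes that had at most 3 counts in the control, a choice made after seeing the data. These were BCL2L14 and BCL2L15 in TOV21G, and BCL2L10 and BCL2L15 in PA-1. edgeR called 0 of them in either line, with 1 in TOV21G and 0 in PA-1 at an unadjusted p under 0.05, and DESeq2 called 0. BBC3, which encodes the BH3-only protein PUMA, was at 17.6 and 22.6 CPM with hairpins 1 and 2 against 7.92 CPM in TOV21G, and at 9.65 and 12.6 against 8.43 CPM in PA-1. All 4 hairpin libraries were above their control, with log2 fold changes of 1.34 (SE 0.36, edgeR adjusted p = 0.422) in TOV21G and 0.40 (SE 0.35, adjusted p = 1) in PA-1. BAX, the pore former beside BAK, was at 88.1 and 68.1 CPM against 48.9 CPM in TOV21G, and at 78.4 and 92.4 against 64.1 CPM in PA-1. It too was higher in every hairpin library, with log2 fold changes of 0.67 (SE 0.29) and 0.41 (SE 0.29).

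PMAIP1, which encodes NOXA, the BH3-only partner of MCL1, was at 6.66 and 12.0 CPM with hairpins 1 and 2 against 11.4 CPM in TOV21G, and at 32.5 and 49.6 against 19.1 CPM in PA-1. Its log2 fold change was -0.29 (SE 0.47) in TOV21G and 1.11 (SE 0.48) in PA-1, and the difference between the lines' effects, -1.39 (SE 0.66), had an edgeR adjusted p of 1.00. HRK, a BH3-only gene best known in neurons, was at 6.46 and 11.2 against 16.4 CPM in TOV21G and at 1.58 and 1.98 against 1.38 CPM in PA-1. BCL2L13, a relative at the mitochondrial membrane, was at 107 and 96.1 against 68.7 CPM in TOV21G and at 74.1 and 68.4 against 60.4 CPM in PA-1. BOK, a relative of BAX and BAK, was at 26.4 and 16.3 against 32.4 CPM in TOV21G and at 25.2 and 20.9 against 22.8 CPM in PA-1, and BCL2L12 at 13.6 and 9.74 against 14.4 CPM in TOV21G and at 29.5 and 31.1 against 30.3 CPM in PA-1. None of HRK, BCL2L13, BOK and BCL2L12 passed in either line's knockdown contrast. BCL2L10 was at 1.91 and 2.55 against 1.43 CPM in TOV21G and had 0 counts in the 3 PA-1 libraries, where 3 counts, the limit that a count of 0 allows, are 0.153 to 0.189 CPM. BCL2L14 and BCL2L15 were at or under 1.09 CPM in every library. Between the lines, edgeR placed HRK higher in TOV21G by 2.93 (SE 0.37, adjusted p = 0.00421) on the log2 scale, and gave PMAIP1 and BCL2L12, lower in TOV21G, log2 fold changes of -1.44 (SE 0.34, adjusted p = 0.0244) and -1.22 (SE 0.22, adjusted p = 0.0118). BCL2L10 was also called as higher and BCL2L14 as lower in TOV21G, with folds that are not given because 1 line had 0 or 1 count per library.

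Of 11 caspase and apoptosome genes, none was called by edgeR or DESeq2 in either line, and 0 in TOV21G and 1 in PA-1 had an unadjusted p under 0.05. With both hairpins, 3 were higher and 2 lower in TOV21G, and 4 were higher and 2 lower in PA-1, with medians of 0.21 and 0.04 on the log2 scale. Over all genes tested, 31.3% were higher and 31.9% lower in TOV21G, and 33.8% higher and 34.0% lower in PA-1. Of 7 caspase inhibitors, 3 were higher and 1 lower in TOV21G and 4 higher and 1 lower in PA-1, beside the same shares. Among the 4 was BIRC7, at 3 and 3 counts against 1 in PA-1. None of the 7 was called by either tool, with 1 in TOV21G and 0 in PA-1 at an unadjusted p under 0.05. That gene was BIRC5, which encodes survivin and is high in dividing cells, at 25.4 and 21.3 against 46.5 CPM in TOV21G and at 93.4 and 96.6 against 109.8 CPM in PA-1. BIRC3, which encodes cIAP2, was at 32.6 and 563 against 42.5 CPM in TOV21G, so its log2 fold change of 2.81 (SE 1.63) joined hairpins on both sides of the control.

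On the death receptor side, 11 of 12 genes were tested, and 6 were higher and 3 lower with both hairpins in TOV21G and 7 higher and 0 lower in PA-1. Over all genes tested, 31.3% were higher and 31.9% lower in TOV21G, and 33.8% higher and 34.0% lower in PA-1. The 7 include TNFSF10, at 6 and 2 counts against 0 in PA-1, and the 6 include TNFRSF10C, at 4 and 3 counts against 2 in TOV21G. Among the 3 lower in TOV21G is TNFSF10, at 4 and 0 counts against 10. edgeR called 0 in either line, with 1 in TOV21G and 2 in PA-1 at an unadjusted p under 0.05, and DESeq2 called 1 in TOV21G and 0 in PA-1. TNFRSF10D, a decoy receptor for TRAIL, was at 207 and 381 CPM with hairpins 1 and 2 against 85.5 CPM in TOV21G, and at 64.1 and 66.0 against 38.1 CPM in PA-1. Its log2 fold change was 1.78 (SE 0.44, edgeR adjusted p = 0.409) in TOV21G and 0.77 (SE 0.42, adjusted p = 1) in PA-1. FAS, a death receptor and known p53 target, was at 146 and 181 against 164 CPM in TOV21G, and at 14.0 and 18.9 against 7.99 CPM in PA-1. Of 17 regulators and partners of the members, 4 were higher and 6 lower with both hairpins in TOV21G and 8 higher and 4 lower in PA-1, beside the same shares. Of the 17, edgeR and DESeq2 called 0, with 3 in TOV21G and 1 in PA-1 at an unadjusted p under 0.05. DYNLL2, the dynein light chain that holds BMF, was at 116 and 215 against 61.1 CPM in TOV21G and at 150 and 166 against 141 CPM in PA-1. MDM2, the ubiquitin ligase of p53, was at 1058 and 654 against 377 CPM in TOV21G and at 367 and 502 against 163.5 CPM in PA-1.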

How the data were processed

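The authors deposited an RSEM gene table per library with expected counts and TPM, per the file headers. Per the submitters' processing notes, cutadapt 1.12, STAR 2.5.3a, RSEM 1.2.31 and edgeR 3.26.8 were used on hg38; the use of edgeR and the strand setting of the counting are not given in the sources used here, so genes overlapping antisense or readthrough transcripts are less certain. The deposited TPM were used as they are, for levels between genes. Transcript lengths, in bases, are RSEM's abundance-weighted means.

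Each expected count was rounded to a whole number, and 0 columns of other samples were set aside. edgeR 4.0.16 (R 4.3.3) scaled libraries by TMM, filterByExpr on 4 groups kept 16855 genes, and its quasi-likelihood F test used 1 mean per group (2 residual degrees of freedom), with Benjamini-Hochberg adjustment over all genes and a threshold of 0.05. SE was taken from F, as |log2 fold change|/sqrt(F). Differences of single libraries used log2 CPM with a prior count of 2 and carry no test. Ratios have exact 95% Clopper-Pearson intervals of the conditional binomial, and 3 counts are 0.153 to 0.202 CPM. The fit was tested on simulated data for returning the fold changes placed in PA-1, with the same spread for every gene and both lines. It therefore does not give the share of true changes that would be called in these data.

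The members and lists were chosen with earlier results of these data known. Named were all members, all other measured family genes, and genes of the other lists among the 3 with the smallest edgeR p in a line; some of these genes are not reported here. Alternatives were RLE scaling, no filter or a stricter one (10 counts in 3 libraries), DESeq2 1.42.0, the hairpin number as a replicate block, each line alone, each hairpin library left out, prior counts of 0.5 and 5, and log2(TPM + 1). No genome was used; sequences come from GENCODE v29 transcripts and the RefSeq promoter table. Within a line 0.606% (TOV21G) and 0.898% (PA-1) of genes with at least 30 counts had equal counts in both hairpin libraries, so none was counted as a duplicate.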

Additional observations from a re-analysis of the deposited data

Results flagged for a closer look

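BAK1 stood out because both TOV21G hairpin libraries were above their control, at 63.3 and 74.6 against 50.6 CPM, and both PA-1 hairpin libraries were below theirs, at 30.4 and 28.5 against 31.4 CPM. The effect in TOV21G minus that in PA-1 was 0.54 on the log2 scale (SE 0.35, edgeR adjusted p = 1.00), so the difference did not pass its test. In TPM the first PA-1 hairpin was above its control, at 36.9 against 36.0. The PA-1 counting intervals, 85.3% to 110% and 80.2% to 102% of the control, both held the control's level. Over all genes tested, 31.3% were higher with both hairpins in TOV21G and 34.0% were lower with both in PA-1. The share of genes with both was not counted, so the pattern alone does not set BAK1 apart. No group had the 4 libraries that a check for outlying samples needs.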

How the results depend on the processing

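With 2 hairpins and 1 control per line, no control could be left out, and a line with 1 hairpin left borrows its spread from the other line. In the knockdown contrasts 0 members were called under every alternative. Genes called in TOV21G, 0 in the fit described above, numbered 226 with DESeq2, 36 with the replicate block and 0 to 1489 with a library left out (1489 without TOV21G hairpin 1). In PA-1 they were 36 with DESeq2 and 13 with the block, in the mean 133, 22 and 0 to 526 (526 without TOV21G hairpin 1), and for the difference between effects 19 with DESeq2. The biological coefficient of variation was 0.387 in TOV21G alone, 0.164 in PA-1 alone and 0.295 together. Between the lines, 4 members and 6837 genes were called, against 1 to 6 members and 3850 to 9946 genes with a library left out, the lowest without PA-1 hairpin 1 and 2 members and 4002 genes without PA-1 hairpin 2. BCL2L1 kept its call throughout, and the cause of the other changes was not tested.

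With a library left out, log2 fold changes turned sign for these members. In TOV21G, BCL2L2 ranged over -0.13 to 0.42, BAD over -0.64 to 0.91, BMF over -0.78 to 0.44 and BCL2L11 over -0.26 to 0.47. In PA-1, BID ranged over -0.038 to 0.27, BIK over -0.88 to 0.22 and BCL2L11 over -0.21 to 0.071. In the mean, BCL2L2 ranged over -0.037 to 0.24, BAD over -0.65 to 0.12 and BCL2L11 over -0.16 to 0.20. For the effect in TOV21G minus that in PA-1, BCL2L1 ranged over -0.39 to 0.049, BCL2L2 over -0.18 to 0.36, MCL1 over -0.22 to 0.28, BMF over -0.18 to 1.04 and BCL2L11 over -0.20 to 0.53. Between the lines, BCL2L2 ranged over -0.20 to 0.074 and BAD over -0.74 to 0.033. In all, 443 of the alternative values of single members kept direction and call, 19 reversed, 5 lost and 3 gained a call.

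The hairpin numbers name the same reagents in both lines. Differences between hairpins correlated at r = 0.236 over 16855 genes between the lines, which are only 2 pairs, so pairing was not established; the replicate block changed no call of a member. Depth limits BIK in PA-1, with 5 to 13 counts per library.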

Other observations

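The abundance-weighted transcript length of a gene follows its isoform mixture. For BCL2 it was 5674 and 5121 bases with hairpins 1 and 2 against 5218 bases in the control of TOV21G, and 5006 and 5421 against 5456 bases in PA-1, a range of 13.3% over the 6 libraries. For BCL2L11, which makes several BIM isoforms, it was 4945 and 4850 against 4872 bases in TOV21G, and 4692 and 4801 against 4579 bases in PA-1, a range of 7.99%. BAD and BMF ranged over 4.40% and 4.05%, and the other 6 members over at most 1.63%. Isoform assignment by RSEM enters these lengths, and they were not tested.

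Among 11556 genes of at least 5 mean CPM, the pattern of BCL2 over the 4 hairpin-minus-control differences was nearest to SRCIN1, C12orf57, MPZL1, CAND2 and HOXD4, at Euclidean distances of 0.139, 0.188, 0.277, 0.292 and 0.295 on the log2 CPM scale. The same ranking is not given for BIK, whose PA-1 values rest on 5 to 13 counts. For HOXD4 both PA-1 differences were identical, at -0.596, as happens when a gene has 0 counts in both hairpin libraries. Its place in the ranking therefore rests on TOV21G. The limit of 5 mean CPM was taken over the 6 libraries, so a gene near 0 in PA-1 could pass it. The differences of a line share its control, so the 4 values are not independent.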
